A study of Mus musculus with 15 samples.

Results

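The livers described here came from pregnant mice that carried the p21 vector, sampled at 8 days post-coitum (8 dpc, midgestation) or at 16 dpc (late gestation). They are 6 of the 15 liver RNA-seq libraries of the series, 3 at each stage, chosen by the vector and the stage in their labels. All mice were wild-type C57BL/6 females (substrain C57BL/6N), virgin at the start of the experiments, and the pregnant mice used had litters of 6 to 12 pups. Their age is stated as 8 to 14 weeks in one place and as 8 weeks to 12 months in another, and the labels give none. Each of the 6 had received, by tail vein and before mating, an adeno-associated virus of serotype 8 (AAV8-p21) in which the TBG promoter, which is active in hepatocytes, drives the mouse p21 cDNA. The 6 livers of AAV8-null mice at the same stages, which received the same vector without the cDNA, are used for comparison, and the 3 non-pregnant AAV8-null livers enter the statistical model. There was no AAV8-p21 group outside pregnancy among the samples used here. The comparison asks how the maternal liver transcriptome moved from mid to late gestation in the presence of the p21 vector, which was designed to hold back hepatocyte proliferation.

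p21, the product of Cdkn1a, inhibits cyclin-dependent kinases and so keeps cells from entering and completing the cell cycle. During pregnancy the maternal liver grows, makes more plasma proteins and lipoproteins, and responds to placental lactogens, growth hormone, glucocorticoids and oestrogens. Hepatocytes secrete albumin, transferrin, clotting factors and most hormone carriers of the blood, and they are the cells in which the TBG promoter acts.

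The 6 libraries held 12977026 to 17559979 counts on protein-coding genes. Values below are CPM on TMM-scaled library sizes. Fold changes are log2 of 16 dpc over 8 dpc, given with their standard errors (SE), with n = 3 livers at each stage. They and the adjusted p-values come from the quasi-likelihood test of edgeR, fitted to the 15 libraries together. A gene is called when its Benjamini-Hochberg adjusted p is under 0.05 and its log2 fold change is above 1 or below -1. The TMM factors were 1.10 to 1.25 at 8 dpc and 0.779 to 0.839 at 16 dpc, which raises every log2 fold change by 0.57 over a scaling by total counts alone. Under that scaling the median of all tested genes would be -0.58. Directions below are relative to the median of all genes. The first principal component of the 15 libraries separated those at 16 dpc from all others, while 8 dpc and non-pregnant libraries overlapped on it. On the second, library 4 of 16 dpc with the p21 vector stood apart from libraries 1 and 3 (-7.38 against 20.01 and 14.015). Values without single libraries are therefore given with many of the results. The labels number the samples of a group without saying that each is a separate mouse, so the p-values measure the spread between these samples.

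Of 12172 genes tested, 334 (2.74%) were called at 16 dpc against 8 dpc, 211 higher (1.73%) and 123 lower (1.01%). The adjusted p alone was under 0.05 for 404 genes (3.32%). The genes that rose included some with very many counts. They took 20.1% ± 0.672 (SD, n = 3) of all counts at 8 dpc and 38.9% ± 3.02 at 16 dpc, and without Alb and Serpina6 still 7.59% ± 0.109 and 16.2% ± 1.54. The genes that fell took 1.44% ± 0.101 and 0.314% ± 0.0214. These shares describe genes chosen by the same values and are not a further test. Of the risers 22 had a mean above 1000 CPM, against 1 of the genes that fell. The log2 fold change passed 2 in size for 93 risers and 48 fallers. The number of calls depended on single livers: it was 154 without replicate 1 of 8 dpc, 182 without replicate 2, 174 without library 3 of 16 dpc, and between 232 and 393 without one of the others. In all 6 of these leave-one-out fits 122 of the 334 genes were called, 89 higher and 33 lower. None of the 334 changed its sign in any of the 6 fits or in 8 other settings tried. The counts of called list members below stand beside the shares of all tested genes given here, 2.74% called, 1.73% higher and 1.01% lower. Below, a number of leave-one-out fits given with a gene is the number of these 6 in which it was called.

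The same transition in AAV8-null livers gave 658 calls (5.41%), 308 higher (2.53%) and 350 lower (2.88%), with 836 genes (6.87%) under the adjusted p alone. The order of the vectors by number of calls was not stable. With edgeR on the compared groups alone AAV8-null gave 316 calls, 160 higher and 156 lower, and AAV8-p21 gave 364. The AAV8-null count was 274 and 248 without replicates 1 and 2 of 8 dpc, 319 and 402 without replicates 2 and 3 of 16 dpc, in each of these with more genes higher than lower, and 1039 without replicate 3 of 8 dpc. The overlaps that follow are those of the model of all libraries. Of the 211 genes that rose with AAV8-p21, 164 also rose with AAV8-null, which is 77.7% of the first list and 53.2% of the second. Of the 123 that fell, 81 also fell with AAV8-null, 65.9% of one list and 23.1% of the other. The contrasts share no library, and no gene was called in opposite directions. Genes called lower with AAV8-null had a median log2 fold change of -1.70 there and -0.96 with AAV8-p21, while genes called higher with AAV8-null had medians of 1.74 and 1.43 in the same order. Both comparisons of medians favour the contrast in which the genes were chosen. The difference of the stage effects (AAV8-p21 minus AAV8-null) was tested directly. It was called for 0 genes by edgeR, with 376 genes (3.09%) at an unadjusted p under 0.05. DESeq2 on all 15 libraries and limma voom also called 0, and DESeq2 on the compared groups alone called 14.

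**Figure D1:**
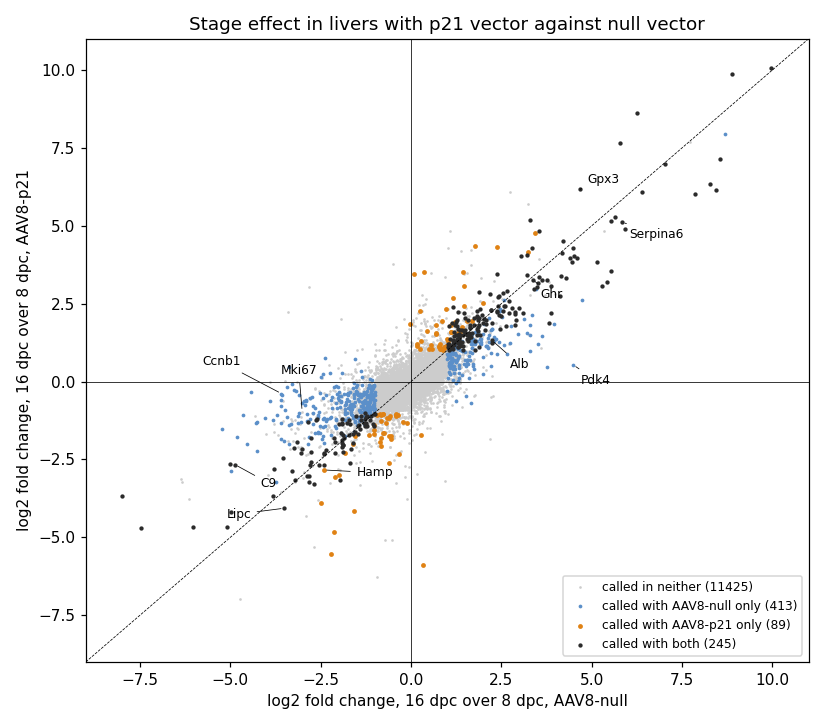
Log2 fold change from 8 to 16 dpc with AAV8-p21 (y axis) against that with AAV8-null (x axis) for the 12172 tested genes, coloured by the contrast in which a gene was called, with the line of equal change dashed. The 245 genes called with both vectors lie in the upper right and lower left, and many of the 413 genes called with AAV8-null only lie on the left, closer to 0 on the y axis than on the x axis.

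Cdkn1a (ENSMUSG00000023067, chr17:29090976-29100727 of GRCm38) was measured at 648, 628 and 347 CPM at 8 dpc and 1664, 815 and 1093 CPM at 16 dpc in the livers with the p21 vector. The 3 values at 16 dpc lay above those at 8 dpc, but the change did not pass the test (log2 fold change 1.14 ± 0.64, adjusted p = 0.411). In AAV8-null livers the gene stood at 27.2, 16.5 and 33.4 CPM at 8 dpc and 64.4, 127 and 59.8 CPM at 16 dpc, all of them below every liver with the p21 vector. Reads from the vector's cDNA and from the mouse's own gene are counted together.

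Albumin mRNA rose with gestation in the livers with p21 vector. Alb took 12.7%, 11.7% and 12.9% of the counts in the libraries at 8 dpc and 20.6%, 22.2% and 20.5% at 16 dpc. The means differed by 8.69 percentage points (exact two-sided permutation test, p = 0.1, the smallest that 3 against 3 livers can give). On the TMM scale the values were 101636, 96944 and 116947 CPM at 8 dpc and 264977, 283277 and 244659 CPM at 16 dpc, without overlap. Alb rose by 1.33 ± 0.24 on the log2 scale (adjusted p = 0.00742). With AAV8-null the share moved from 9.17% to 26.1%. The stage difference was 8.23 percentage points smaller with AAV8-p21 than with AAV8-null (exact permutation test with the vector labels exchanged within each stage, p = 0.005, the smallest that 400 arrangements can give). This exchange also responds to a vector difference at a single stage, and at 8 dpc the Alb share was already higher with AAV8-p21 (12.4% against 9.17%).

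Of 17 plasma carrier proteins tested 6 rose and the other 11 did not pass the test. In 12 of the 17 every late liver exceeded every early one, as in 11.5% of all tested genes, and the median log2 fold change was 0.88, where all tested genes had -0.02. Serpina6, which encodes corticosteroid-binding globulin, the glucocorticoid carrier of plasma, was measured at 552, 424 and 792 CPM at 8 dpc and 31266, 23399 and 6678 CPM at 16 dpc. The libraries at 16 dpc lay far above those at 8 dpc and spread widely among themselves, library 4 being lowest. Serpina6 rose by 5.12 ± 0.79 on the log2 scale (adjusted p = 0.00243). Cp, the copper-carrying ferroxidase ceruloplasmin, stood at 1172, 1339 and 1368 CPM at 8 dpc and 8135, 8396 and 6778 CPM at 16 dpc. Cp rose by 2.59 ± 0.23 on the log2 scale (adjusted p = 2.04e-05). Trf, transferrin, the iron carrier, was at 17710.2, 14956 and 15839 CPM at 8 dpc and 53612, 57850.5 and 31236 CPM at 16 dpc. Trf rose by 1.56 ± 0.31 on the log2 scale (adjusted p = 0.0127). Ahsg, the mineral-binding fetuin-A, rose by 1.62 ± 0.20 (adjusted p = 0.000427). The haem scavenger Hpx rose by 1.09 ± 0.25 (adjusted p = 0.0288). Serpina6, Cp, Alb and Ahsg were called in each leave-one-out fit. Trf was lost without replicate 2 of 8 dpc or library 3 of 16 dpc and Hpx stayed in 2 of the 6 fits. Ttr, the thyroxine and retinol carrier, went the other way without passing the test, at 3398, 2653 and 4467 CPM at 8 dpc and 2215, 2511 and 1382 CPM at 16 dpc. For Ttr the log2 fold change of -0.78 ± 0.33 did not pass the test (adjusted p = 0.244).

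**Figure D2:**
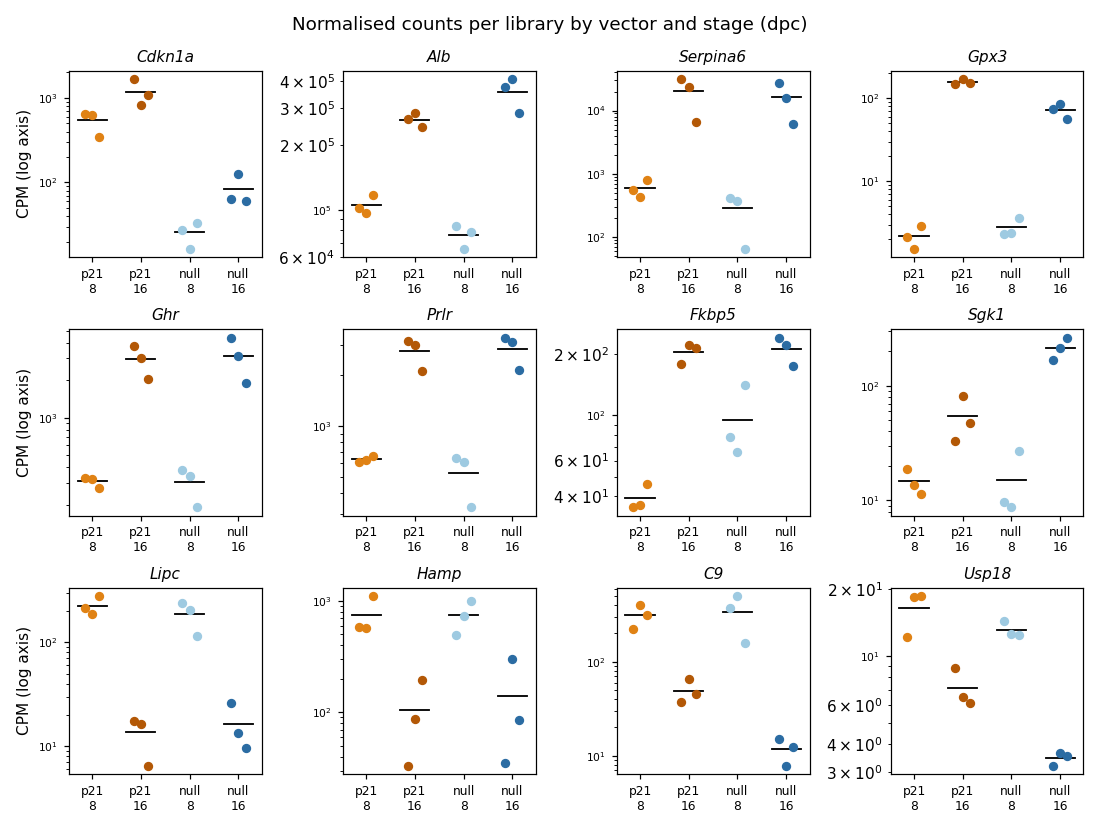
CPM on a log axis for 12 genes in each library of the 4 pregnant groups (vector, with the stage in dpc below), points for livers and a bar for the mean of 3. For 11 of the 12 genes, Cdkn1a being the exception, the change between the p21 groups was called.

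The serine protease inhibitor genes of chromosome 12 lie side by side between chr12:103614786-104414329 of GRCm38 (GENCODE M21), and were looked at together after their values were seen. All 16 tested Serpina genes of this cluster had a positive log2 fold change, with a median of 1.43, and 7 rose. Of all 12172 tested genes 5855 had a positive value and 1.73% rose. Besides Serpina6 these were Serpina16, Serpina11, Serpina3n and Serpina1b, Serpina1d and Serpina1e, mouse copies of the elastase inhibitor alpha-1-antitrypsin. Serpina16, the neighbour of Serpina6, had 0 counts in all early livers. In the late livers it had 17.04, 8.29 and 1.67 CPM, at least 51-fold higher against a floor of 3 counts per library, or at least 28.2-fold without library 1. It was called in 2 leave-one-out fits. Serpina1e was at 232, 484 and 1014 CPM at 8 dpc and 7062, 6640.5 and 2828 CPM at 16 dpc. Serpina1e rose by 3.26 ± 0.53 on the log2 scale (adjusted p = 0.00378), in 6 leave-one-out fits. The Serpina1 copies are near-identical and Serpina1b and Serpina1d overlap in the annotation, so reads may be split between them. Of these 7 genes 6 also rose with AAV8-null. Serpina3n was not called there (adjusted p = 0.0549), and Serpina3f was called only there.

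Of 29 coagulation and fibrinolysis genes tested 8 rose and the other 21 did not pass the test, with a median of 0.67. Of all tested genes 1.73% rose, with a median of -0.02. The number of coagulation genes that rose was 4 without replicate 1 or 2 of 8 dpc or library 3 of 16 dpc, and 5 or 6 without one of the others. F2, prothrombin, was measured at 1510.4, 1654 and 1791 CPM at 8 dpc and 4289.9, 4138 and 3491 CPM at 16 dpc. F2 rose by 1.27 ± 0.21 on the log2 scale (adjusted p = 0.00369). F7, which starts clotting together with tissue factor, was at 123, 116 and 125 CPM at 8 dpc and 561, 430.0 and 231 CPM at 16 dpc. F7 rose by 1.75 ± 0.31 on the log2 scale (adjusted p = 0.00707). F11, which activates factor IX, was at 33.4, 43.4 and 43.1 CPM at 8 dpc and 174, 135 and 105 CPM at 16 dpc. F11 rose by 1.78 ± 0.24 on the log2 scale (adjusted p = 0.000829). In each of these genes every library at 16 dpc exceeded every library at 8 dpc. Vwf, von Willebrand factor, usually a product of endothelial cells and platelets' precursors, was at 4.44, 5.31 and 3.57 CPM at 8 dpc and 17.5, 28.7 and 75.4 CPM at 16 dpc, with library 4 highest. Vwf rose by 3.19 ± 0.55 on the log2 scale (adjusted p = 0.0056). The 13 endothelial marker genes summed to 270.3 to 364 CPM at 8 dpc and 354 to 416 CPM at 16 dpc. Of them 0 were called by edgeR (2 at an unadjusted p under 0.05, 0 by DESeq2 on all 15 libraries or limma voom, 1 by DESeq2 on the compared groups), and their part in the Vwf value was not tested. F5, Kng1 and Vtn were also called, but each in at most 2 of the 6 leave-one-out fits. The fibrinogen chains were at log2 fold changes of 0.38 for Fga, 0.50 for Fgb and 0.40 for Fgg (adjusted p = 0.576, 0.398 and 0.524).

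HNF1 is a factor of hepatocytes that binds the Alb promoter and those of other plasma protein genes. In RefSeq promoter windows of GRCm38.p6 (the 250 bases before the annotated start), the HNF1 half-site GTTAAT, was searched on both strands. It occurred in 6 of the 14 carrier genes and 6 of the 23 coagulation genes with a window, against 7.49% of the 27025 genes of that table and 5.49% of the tested genes with a window. Of the called risers 15 of 165 with a window held it. The stretch of the Alb promoter that holds it, chr5:90460828-90460853 on the plus strand, is shown because Alb carries the largest share of the counts, with the half-site in capitals.
Alb: ggtaagtatgGTTAATgatctacagt
A match of letters is a description and does not show binding.

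Among complement genes 1 fell and 1 rose. C9, the last component of the membrane attack complex, was at 225, 399 and 317 CPM at 8 dpc and 37.6, 65.3 and 44.9 CPM at 16 dpc, without overlap. C9 fell by 2.67 ± 0.40 on the log2 scale (adjusted p = 0.00194). Cfi, the protease that inactivates C3b, rose by 1.04 ± 0.20 (adjusted p = 0.0116, 4 leave-one-out fits). The other 21 of 23 complement genes did not pass the test, and the median was 0.04. With AAV8-null C9 moved from 371, 498 and 158 CPM to 15.1, 7.83 and 12.3 CPM. For C9 the stage effects differed by 2.20 ± 0.54 (unadjusted p = 0.00112, not called after adjustment). Of 22 acute-phase genes 3 rose and the other 19 did not pass the test, with a median of 0.55. The number that rose was 6 without replicate 3 of 8 dpc and 2 without any one of the other libraries, and DESeq2 on all 15 libraries and limma voom called 8 each. Itih4, a heavy chain of the inter-alpha-trypsin inhibitors, was at 2168, 2499 and 1882 CPM at 8 dpc and 10852, 13124 and 11383 CPM at 16 dpc. Itih4 rose by 2.43 ± 0.28 on the log2 scale (adjusted p = 0.000214). Its relative Itih3 rose by 1.42 ± 0.23 (adjusted p = 0.00393), and Serpina3n, called in none of the leave-one-out fits, by 1.54 ± 0.38 (adjusted p = 0.0408). Of the classical inflammation markers Saa1 was at 27.7, 33.2 and 31.03 CPM at 8 dpc and 35.4, 38.5 and 19.3 CPM at 16 dpc. Crp was at 463, 501 and 469.9 CPM at 8 dpc and 558, 532 and 376 CPM at 16 dpc. Neither passed the test (adjusted p = 0.995 and 0.973).

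Lipoprotein genes changed in both directions. Apoa1, the main protein of HDL, was measured at 1999, 2549 and 3987 CPM at 8 dpc and 12347, 12420.5 and 15397 CPM at 16 dpc. Apoa1 rose by 2.23 ± 0.35 on the log2 scale (adjusted p = 0.00253). Apoc2, the cofactor of lipoprotein lipase, was at 165, 118 and 185 CPM at 8 dpc and 1172, 1038 and 1129 CPM at 16 dpc. Apoc2 rose by 2.83 ± 0.23 on the log2 scale (adjusted p = 9.55e-06). Lipc, the hepatic lipase that trims HDL and remnant particles, was at 213, 189 and 279 CPM at 8 dpc and 17.6, 16.5 and 6.48 CPM at 16 dpc. Lipc fell by 4.07 ± 0.45 on the log2 scale (adjusted p = 0.000194). The stages did not overlap in any of the 3 genes, and the other 23 genes of cholesterol efflux and apolipoproteins did not pass the test, with a list median of 0.48. Apob, the scaffold of VLDL, was at 4587, 4927 and 2787 CPM at 8 dpc and 5248, 6469.9 and 8309.9 CPM at 16 dpc (adjusted p = 0.296).

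Gpx3, the secreted selenium-dependent glutathione peroxidase of plasma, was measured at 2.12, 1.54 and 2.87 CPM at 8 dpc and 148, 169 and 153 CPM at 16 dpc. Gpx3 rose by 6.17 ± 0.29 on the log2 scale (adjusted p = 2.77e-08). The 3 late livers lay close together and far above each early one. With AAV8-null the gene moved from 2.33, 2.38 and 3.64 CPM to 73.6, 86.1 and 55.7 CPM. Its difference between the stage effects was 1.49 ± 0.35 (unadjusted p = 0.000647, not called after adjustment). Dnah11, a dynein of motile cilia, was at 0.296, 0.285 and 0.140 CPM at 8 dpc and 17.7, 24.8 and 19.4 CPM at 16 dpc. Dnah11 rose by 6.33 ± 0.45 on the log2 scale (adjusted p = 2.83e-06). Adcy1, a calcium-stimulated adenylyl cyclase, was at 0.839, 0.399 and 0.280 CPM at 8 dpc and 18.1, 20.3 and 19.1 CPM at 16 dpc. Adcy1 rose by 5.17 ± 0.37 on the log2 scale (adjusted p = 2.83e-06). Late livers were again close to each other. Igdcc4, a cell-surface protein of the immunoglobulin family, was at 0.0494, 0 and 0.0700 CPM at 8 dpc and 2.13, 8.72 and 44.1 CPM at 16 dpc, with library 4 highest. Abca17, an ABC transporter, had 0 counts in the early livers and 14.1, 7.85 and 1.53 CPM in the late ones, at least 44.3-fold higher, or at least 26.6-fold without library 1. The lipase-related Pnliprp1 also had 0 counts in the early livers and was at least 6.03-fold higher in the late ones (2 leave-one-out fits). Pancreas markers, 5 genes of which Pnlip was at 0 in all 6 livers, summed to 16.7 to 22.1 CPM at 8 dpc and 5.97 to 10.7 CPM at 16 dpc. Nearly all of these counts were of Cela1, while Prss2, Cpa1 and Ctrb1 had at most 2 counts in a liver. Tdrd12, Cap2, Adra2c, Sorcs3 and Insrr were also among the 15 largest rises, with log2 fold changes of 5.29 to 7.14 and late means under 10 CPM. Of these Tdrd12 and Cap2 were called in all 6 leave-one-out fits and the others in at most 1. The fitted fold changes of genes near 0 counts depend on the prior count.

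Slc34a2, a sodium-phosphate cotransporter, was at 18.8, 46.9 and 27.7 CPM at 8 dpc and 1.53, 1.24 and 0.510 CPM at 16 dpc. Slc34a2 fell by 4.84 ± 0.87 on the log2 scale (adjusted p = 0.00707). The sulfotransferase Sult2a3 was at 22.7, 9.59 and 14.6 CPM at 8 dpc and 0.341, 0.582 and 0.0728 CPM at 16 dpc. Sult2a3 fell by 5.53 ± 0.997 on the log2 scale (adjusted p = 0.00707). Adgrf1, an adhesion G protein-coupled receptor, was at 11.2, 15.5 and 7.21 CPM at 8 dpc and 0.596, 0.436 and 0.291 CPM at 16 dpc. Adgrf1 fell by 4.67 ± 0.69 on the log2 scale (adjusted p = 0.00177). Adam11, a membrane protein of the disintegrin family, was at 15.3, 3.82 and 7.77 CPM at 8 dpc and 0.341, 0.582 and 0.510 CPM at 16 dpc. Adam11 fell by 4.20 ± 0.53 on the log2 scale (adjusted p = 0.000456). Ildr2, a membrane protein linked to lipid handling, fell by 3.18 ± 0.50 (adjusted p = 0.00278). In AAV8-null livers Slc34a2 started lower, at 5.99, 6.55 and 2.39 CPM, and Sult2a3 at 1.05, 1.91 and 0 CPM. Naip6, one of several near-identical Naip genes, had 0.790, 0.228 and 0.420 CPM in the early livers and 0 counts in the late ones, at least 2.08-fold lower (1 leave-one-out fit). Sult2a7, Ugt2b37 and Raet1d also have close copies, and with Serpinb1a, Hspb1, Smim22, Tnfaip8l3 and Zfp454 they had log2 fold changes of -4.71 to -3.22. Of these 8 Smim22 was called in all leave-one-out fits and the others in at most 3. Gpx1, the abundant cytosolic glutathione peroxidase, was chosen after its values were seen because Gpx3 rose. Its level was 1382, 1805 and 1914 CPM at 8 dpc and 774, 587 and 549.8 CPM at 16 dpc, without overlap. Gpx1 fell by 1.42 ± 0.25 on the log2 scale (adjusted p = 0.0065).

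Ghr, the growth hormone receptor, was measured at 327, 322 and 272 CPM at 8 dpc and 3781, 3026 and 2064 CPM at 16 dpc. Ghr rose by 3.27 ± 0.35 on the log2 scale (adjusted p = 0.00016). Prlr, the receptor of prolactin and placental lactogens, was at 616, 631 and 667 CPM at 8 dpc and 3206, 3006 and 2129 CPM at 16 dpc. Prlr rose by 2.12 ± 0.32 on the log2 scale (adjusted p = 0.00217). The early livers differed little from each other and lay wholly below the late ones, of which library 4 was lowest in both genes. Lifr, the receptor of leukaemia inhibitory factor, was at 592, 945 and 921 CPM at 8 dpc and 4556, 3389 and 1766 CPM at 16 dpc. Lifr rose by 1.98 ± 0.44 on the log2 scale (adjusted p = 0.0249), in 2 leave-one-out fits. Among 24 genes of the growth hormone, prolactin and STAT5 list Ghr, Prlr and the sulfotransferase Sult3a1 (in none of the leave-one-out fits) rose, the other 21 did not pass the test, and the median was -0.04. Of the classical STAT5 targets Igf1 was at 501, 607 and 674 CPM at 8 dpc and 634, 535 and 591 CPM at 16 dpc. Socs2 was at 38.3, 38.8 and 57.2 CPM at 8 dpc and 36.6, 38.02 and 36.7 CPM at 16 dpc. None of Igf1, Socs2 and Cish passed the test (adjusted p = 0.983, 0.714 and 0.394). Among 30 growth factor and insulin receptor genes Il6ra rose by 1.63 ± 0.32 and Tgfbr2 by 1.38 ± 0.24 (adjusted p = 0.0119 and 0.0063, the first in 4 leave-one-out fits). Ntrk2, a neurotrophin receptor, fell by 2.63 ± 0.67 (adjusted p = 0.0448, 1 leave-one-out fit). Insr, the insulin receptor, stood at 0.31 ± 0.25 (adjusted p = 0.607) and Egfr at 0.63 ± 0.43 (adjusted p = 0.509).

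Of 17 glucocorticoid-responsive genes 4 rose and the other 13 did not pass the test, where 1.73% of all tested genes rose. The median was 1.11 against 0.55 in AAV8-null livers, while the median of the members' own differences between the vectors was 0.20. The number that rose was 2 without replicate 1 or 2 of 8 dpc or library 3 or 4 of 16 dpc, 4 without one of the others, and 9 by DESeq2 or limma voom. Fkbp5, a co-chaperone that dampens the glucocorticoid receptor, was at 35.5, 36.5 and 45.9 CPM at 8 dpc and 178, 222 and 215 CPM at 16 dpc, without overlap. Fkbp5 rose by 2.38 ± 0.33 on the log2 scale (adjusted p = 0.000923). Sgk1, the serum- and glucocorticoid-regulated kinase, was at 18.9, 13.6 and 11.5 CPM at 8 dpc and 32.96, 82.3 and 47.6 CPM at 16 dpc, without overlap. Sgk1 rose by 1.89 ± 0.44 on the log2 scale (adjusted p = 0.031), in 1 leave-one-out fit. With AAV8-null it moved from 9.72, 8.75 and 26.8 CPM to 168, 214 and 263 CPM. The stage effects of Sgk1 differed by -1.94 ± 0.61 (unadjusted p = 0.00654, not called). Zbtb16, a zinc-finger repressor, rose by 1.86 ± 0.48 (adjusted p = 0.0497) but was called in none of the leave-one-out fits, and Serpina6 also belongs to the list. Tsc22d3, another common target, was not called (log2 fold change -0.44 ± 0.40, adjusted p = 0.649). Hsd11b1, which regenerates active glucocorticoid in the liver, was at 654, 509.9 and 636 CPM at 8 dpc and 1373, 1242 and 990.1 CPM at 16 dpc. Hsd11b1 rose by 1.002 ± 0.20 on the log2 scale (adjusted p = 0.0151), just past the fold threshold, in 3 leave-one-out fits. Neither the feeding state nor the time of day at sampling, to which some of these genes respond, is given in the sources used here.

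The sugar transporter gene Slc45a3 was measured at 35.1, 36.6 and 15.1 CPM at 8 dpc and 28.02, 17.7 and 26.5 CPM at 16 dpc, with overlap of the stages. For Slc45a3 the log2 fold change of -0.27 ± 0.38 did not pass the test (adjusted p = 0.792). H6pd, the hexose-6-phosphate dehydrogenase of the endoplasmic reticulum, was at 284, 374 and 359 CPM at 8 dpc and 456, 452 and 604 CPM at 16 dpc, without overlap. For H6pd the log2 fold change of 0.57 ± 0.23 did not pass the test (adjusted p = 0.218). Pdk4, which shuts off pyruvate dehydrogenase, was at 23.4, 13.7 and 16.6 CPM at 8 dpc and 22.4, 40.9 and 14.4 CPM at 16 dpc, with overlap. For Pdk4 the log2 fold change of 0.53 ± 0.72 did not pass the test (adjusted p = 0.782). In AAV8-null livers Pdk4 moved from 36.03, 15.7 and 14.6 CPM to 159, 1222 and 109.7 CPM, replicate 2 being highest. The difference of the stage effects was -3.96 ± 1.05 (unadjusted p = 0.00195, not called after adjustment). Among 10 sugar transport genes edgeR called 0, with 5 at an unadjusted p under 0.05 (0 calls by DESeq2 on all 15 libraries, 1 by limma voom, 2 by DESeq2 on the compared groups). Among 36 genes of glycolysis, gluconeogenesis and pyruvate edgeR also called 0, with 9 at an unadjusted p under 0.05 (1 call by each of the other 3 tests). Of 22 glycogen genes Stbd1, which tethers glycogen to membranes, rose by 1.205 ± 0.29 (adjusted p = 0.0351, 2 leave-one-out fits). Gys2, the liver glycogen synthase, was at 53.3, 63.1 and 199 CPM at 8 dpc and 283, 425 and 635 CPM at 16 dpc. For Gys2 the log2 fold change of 2.09 ± 0.59 did not pass the test (adjusted p = 0.0706). Pygl, the liver glycogen phosphorylase, was at 415, 393 and 373 CPM at 8 dpc and 269.5, 278 and 98.4 CPM at 16 dpc. For Pygl the log2 fold change of -0.87 ± 0.35 did not pass the test (adjusted p = 0.212). In both genes the stages did not overlap.

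Library 4 of 16 dpc stood apart in genes of lipid synthesis. Scd1, the stearoyl-CoA desaturase, was at 7349, 3007 and 4462 CPM at 8 dpc and 1573, 1973 and 166 CPM at 16 dpc. Fasn, fatty acid synthase, was at 796, 611 and 665 CPM at 8 dpc and 413, 390.4 and 77.9 CPM at 16 dpc. Lepr, the leptin receptor, was chosen after its values were seen and stood at 4.24, 3.60 and 14.3 CPM at 8 dpc and 3.07, 7.41 and 103 CPM at 16 dpc. It was highest in library 4. There Scd1 and Fasn were far below the other late livers, and neither was called (adjusted p = 0.305 and 0.282). Mlxipl, the carbohydrate-sensing factor ChREBP, was at 187, 116 and 318 CPM at 8 dpc and 71.6, 57.4 and 14.3 CPM at 16 dpc. Mlxipl fell by 2.12 ± 0.55 on the log2 scale (adjusted p = 0.0497), but in none of the leave-one-out fits. Mid1ip1, an activator of acetyl-CoA carboxylase, fell by 1.63 ± 0.39 (adjusted p = 0.0356, 2 leave-one-out fits). Fads2, a desaturase of polyunsaturated fatty acids, was at 488, 576 and 799.7 CPM at 8 dpc and 2394, 1901 and 1089.7 CPM at 16 dpc. Fads2 rose by 1.53 ± 0.36 on the log2 scale (adjusted p = 0.033), in 2 leave-one-out fits. With Lpin1, 4 of 23 lipogenic genes were called. Of 32 genes of fatty acid oxidation and PPAR-alpha Cyp4a31, a fatty acid hydroxylase with close copies, rose by 2.13 ± 0.50 (adjusted p = 0.031, 1 leave-one-out fit). The list's median of 0.72 became 0.40 without library 4 of 16 dpc and 1.13 without replicate 3 of 8 dpc. Among 25 genes of cholesterol synthesis and uptake edgeR called 0 (1 at an unadjusted p under 0.05, 1 by limma voom, 0 by DESeq2 with either set of libraries). Their median of -0.69 moved between -1.27 and -0.35 over the leave-one-out fits.

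Some transporters of bile acids and organic ions fell. Slc10a1, the sodium-dependent bile acid importer NTCP, was at 554, 523 and 566 CPM at 8 dpc and 260.1, 224 and 287 CPM at 16 dpc, without overlap. Slc10a1 fell by 1.09 ± 0.18 on the log2 scale (adjusted p = 0.00419), in 5 leave-one-out fits. Abcc3, which exports bile acid conjugates to the blood, was at 147, 160.0 and 136 CPM at 8 dpc and 15.2, 29.7 and 69.4 CPM at 16 dpc. Abcc3 fell by 1.96 ± 0.43 on the log2 scale (adjusted p = 0.0234), in 2 leave-one-out fits. Hsd3b7, an enzyme of bile acid synthesis, fell by 1.05 ± 0.27 (adjusted p = 0.05, 1 leave-one-out fit), and the other 25 genes of this list did not pass the test. Cyp7a1, the rate-limiting enzyme, was at 221, 277 and 124 CPM at 8 dpc and 252, 187 and 45.2 CPM at 16 dpc (adjusted p = 0.859). Of 30 organic ion and drug transporters 1 rose and 4 fell. Slc17a1, a phosphate and urate transporter, was at 12.4, 10.3 and 11.3 CPM at 8 dpc and 2.90, 3.56 and 3.93 CPM at 16 dpc. Slc17a1 fell by 1.71 ± 0.19 on the log2 scale (adjusted p = 0.000214). Its relative Slc17a2 fell by 1.98 ± 0.25 (adjusted p = 0.000456), the organic ion carrier Slc22a27 by 2.15 ± 0.42 (adjusted p = 0.0107). Abca8a fell by 1.87 ± 0.41 (adjusted p = 0.0233, 2 leave-one-out fits). Slc22a3, a cation transporter, was at 3.80, 4.34 and 3.85 CPM at 8 dpc and 13.8, 13.01 and 28.3 CPM at 16 dpc. Slc22a3 rose by 2.20 ± 0.40 on the log2 scale (adjusted p = 0.00715).

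Slc6a9, the glycine transporter GlyT1, was measured at 16.04, 22.1 and 36.1 CPM at 8 dpc and 257, 245 and 199.9 CPM at 16 dpc. Slc6a9 rose by 3.24 ± 0.36 on the log2 scale (adjusted p = 0.000188). Slc1a2, a glutamate transporter of pericentral hepatocytes, was at 205, 184 and 255 CPM at 8 dpc and 682, 780.5 and 739 CPM at 16 dpc. Slc1a2 rose by 1.77 ± 0.23 on the log2 scale (adjusted p = 0.000505). Slc43a1 and Slc7a7, carriers of neutral and of cationic amino acids, rose by 1.88 ± 0.31 and 1.65 ± 0.30 (adjusted p = 0.0039 and 0.00728). The other 19 of 23 amino acid transporters did not pass the test, and the median was 0.08. Of 43 urea cycle and amino acid genes 3 fell and the other 40 did not pass the test, and each of the 3 was called in 2 leave-one-out fits. Hal, the histidine ammonia-lyase, was at 509, 409 and 311 CPM at 8 dpc and 203, 116 and 137 CPM at 16 dpc. Hal fell by 1.43 ± 0.31 on the log2 scale (adjusted p = 0.0193). Cth, which makes cysteine from cystathionine, was at 782, 597 and 532 CPM at 8 dpc and 278, 254 and 303 CPM at 16 dpc. Cth fell by 1.19 ± 0.26 on the log2 scale (adjusted p = 0.0195). Gls2, the liver glutaminase, fell by 1.15 ± 0.26 (adjusted p = 0.0293). Cps1, the entry enzyme of the urea cycle, overlapped between the stages at 3836, 2851 and 1748 CPM at 8 dpc and 1837, 1955 and 6341 CPM at 16 dpc.

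Of 24 pericentral and Wnt target genes Slc1a2 rose and Cyp2c37 fell, with a median of 0.10. Cyp2c37, which hydroxylates arachidonic acid, was at 992, 747 and 849 CPM at 8 dpc and 273, 163 and 90.6 CPM at 16 dpc. Cyp2c37 fell by 2.30 ± 0.34 on the log2 scale (adjusted p = 0.00198). Glul, the glutamine synthetase of the last pericentral cell layers, was at 792, 797 and 767 CPM at 8 dpc and 922, 925 and 735 CPM at 16 dpc. Of 19 periportal genes Cyp17a1, a steroid 17-hydroxylase, and Hal, Gls2 and Ctsc were called, with a median of -0.13. Cyp17a1 was at 83.3, 99.7 and 130.4 CPM at 8 dpc and 354, 338 and 775 CPM at 16 dpc. Cyp17a1 rose by 2.23 ± 0.42 on the log2 scale (adjusted p = 0.00859), in 5 leave-one-out fits. Among 39 cytochrome P450 genes of families 1 to 3, Cyp2d40 rose by 1.81 ± 0.44 (adjusted p = 0.0371, 1 leave-one-out fit). Cyp2a22 and Cyp2b13 fell by 1.93 ± 0.34 and 2.67 ± 0.60 (adjusted p = 0.00582 and 0.0249, the second in 3 leave-one-out fits). Among 48 conjugating enzymes 3 rose and 4 fell. The number that fell was 1 without library 4 of 16 dpc and ranged from 1 to 9 over all settings. The fallers Sult2a3, Sult1d1, Sult2a7 and Ugt2b37 were called in 6, 4, 3 and 1 leave-one-out fits. Gstp1, a glutathione transferase, was at 48.8, 53.1 and 83.003 CPM at 8 dpc and 282, 305 and 141 CPM at 16 dpc. Gstp1 rose by 1.98 ± 0.35 on the log2 scale (adjusted p = 0.00592). Sult3a2, a sulfotransferase, was at 2.71, 9.76 and 5.53 CPM at 8 dpc and 143, 81.3 and 69.4 CPM at 16 dpc. Sult3a2 rose by 4.03 ± 0.73 on the log2 scale (adjusted p = 0.0073). Most members of these families have close copies.

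Hamp, the iron hormone hepcidin, was at 584, 576 and 1102 CPM at 8 dpc and 33.3, 86.9 and 196 CPM at 16 dpc, without overlap although the late livers spread widely. Hamp fell by 2.84 ± 0.72 on the log2 scale (adjusted p = 0.0453), in 1 leave-one-out fit. Igfbp4, a binding protein of insulin-like growth factors, was at 810.1, 948 and 1225 CPM at 8 dpc and 2442, 1972 and 2225 CPM at 16 dpc. Igfbp4 rose by 1.15 ± 0.20 on the log2 scale (adjusted p = 0.00466). Enho, adropin, rose by 1.30 ± 0.32 (adjusted p = 0.0401) but in none of the leave-one-out fits. Igfbp1, another binding protein, was at 190.1, 158 and 109 CPM at 8 dpc and 363, 643 and 345 CPM at 16 dpc and did not pass the test (adjusted p = 0.0565). The list of 25 hepatokines and IGF-binding proteins had 2 risers, 1 faller and a median of 0.88, which became 0.52 without library 4 of 16 dpc and 1.33 without replicate 3 of 8 dpc. Of 21 iron genes Cp and Trf rose and Hamp fell.

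**Figure D3:**
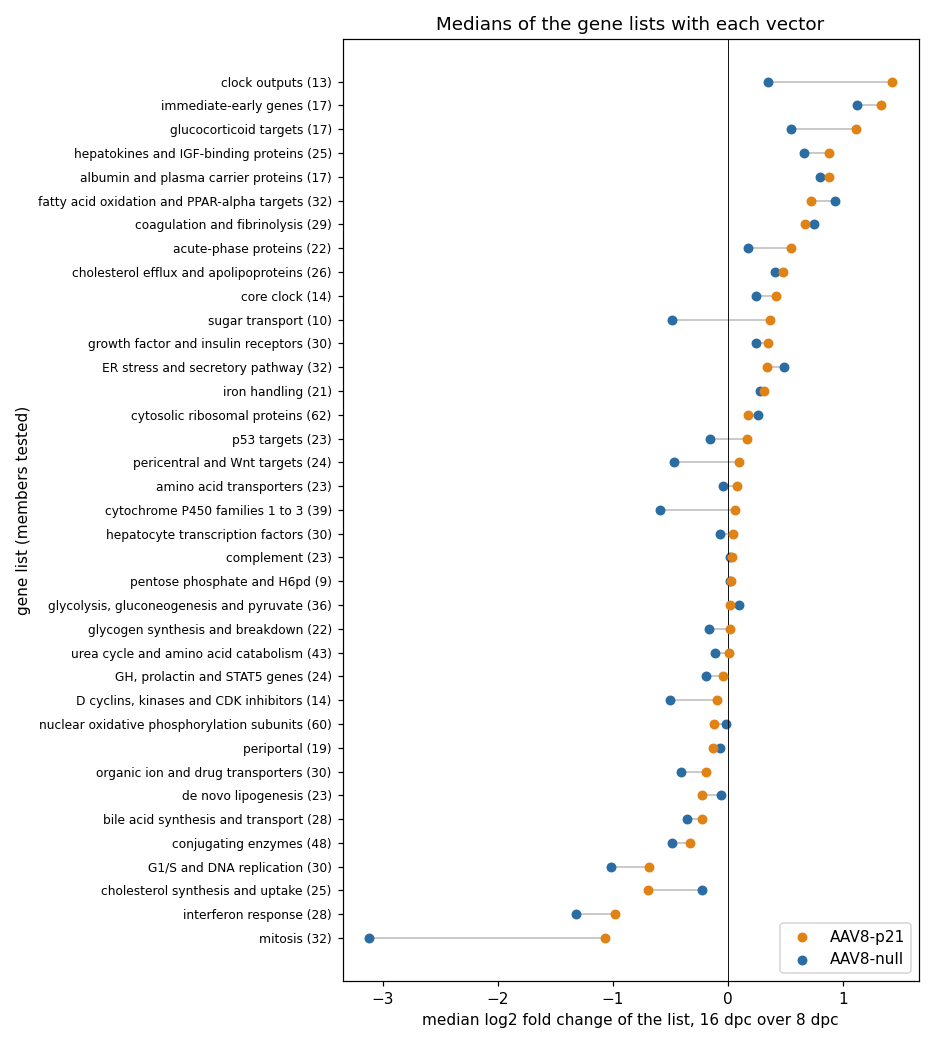
Median log2 fold change from 8 to 16 dpc (x axis) of 37 gene lists (y axis, with the number of members tested) in livers with AAV8-p21 (orange) and AAV8-null (blue), the grey line joining both values of a list. The mitosis list shows the widest gap, at -1.07 with AAV8-p21 and -3.13 with AAV8-null, and clock outputs and immediate-early genes have the highest medians with AAV8-p21.

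Of 32 mitotic genes 0 were called by edgeR, DESeq2 (with either set of libraries) or limma voom, and 0 had an unadjusted p under 0.05. Their median was -1.07, between -1.39 and -0.43 over the leave-one-out fits. Their summed level was 24.4, 41.8 and 64.8 CPM in the early livers and 30.99, 33.4 and 12.7 CPM in the late ones, so the stages overlapped. With AAV8-null the sums were 373, 385 and 43.9 CPM at 8 dpc and 61.9, 16.2 and 19.7 CPM at 16 dpc. There 19 of the 32 genes fell and the median was -3.13. Replicate 3 of AAV8-null at 8 dpc lay at the level of the livers with p21 vector, and replicates 1 and 2 lay far above every one of them. Mki67, the Ki67 antigen of cycling cells, was at 4.44, 5.71 and 8.90 CPM at 8 dpc and 5.28, 3.42 and 1.09 CPM at 16 dpc with the p21 vector. The AAV8-null livers had 43.8, 45.4 and 4.11 CPM early and 8.47, 1.58 and 1.51 CPM late. Hmmr, the hyaluronan-mediated motility receptor, which acts at the mitotic spindle, was at 0.296, 0.799 and 0.841 CPM at 8 dpc and 0.341, 0.509 and 0 CPM at 16 dpc. For Hmmr the log2 fold change of -1.14 ± 1.25 did not pass the test (adjusted p = 0.714). The difference of the stage effects over the 32 genes had a median of 2.04, with 6 members at an unadjusted p under 0.05 and 0 called by edgeR.

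Mitotic promoters often carry several CCAAT boxes, the site of NF-Y, at similar distances. In the RefSeq windows, 16 of the 27 mitotic genes with a window had CCAAT, counted on both strands, at 2 or more places. This held for 11.5% of all 27025 genes, 15.1% of the tested genes with a window, 31 of 165 called risers and 15 of 96 called fallers. These stretches of GRCm38.p6, on the minus strand, are shown for genes that replicates 1 and 2 of AAV8-null at 8 dpc expressed above every liver with the p21 vector, with CCAAT or its complement ATTGG in capitals. They lie at chr13:100786539-100786595 (Ccnb1), chr9:70421561-70421651 (Ccnb2) and chr11:99024233-99024426 (Top2a).
Ccnb1: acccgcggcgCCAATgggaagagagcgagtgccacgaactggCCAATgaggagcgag
Ccnb2: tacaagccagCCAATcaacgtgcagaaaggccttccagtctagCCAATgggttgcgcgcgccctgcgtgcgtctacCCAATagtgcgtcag
Top2a: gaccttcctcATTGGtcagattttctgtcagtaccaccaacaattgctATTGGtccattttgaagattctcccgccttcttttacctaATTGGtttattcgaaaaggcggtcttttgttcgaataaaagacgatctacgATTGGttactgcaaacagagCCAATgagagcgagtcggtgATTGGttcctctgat
Ccnb1, cyclin B1, which drives entry into mitosis, was at 0.247, 0.285 and 0.490 CPM at 8 dpc and 0.0852, 0.582 and 0.0728 CPM at 16 dpc, with 8.96, 8.16 and 1.14 CPM in the early AAV8-null livers. Its relative Ccnb2 was at 0.247, 0.514 and 2.24 CPM at 8 dpc and 0.256, 1.60 and 0.218 CPM at 16 dpc, with 15.4, 12.3 and 1.87 CPM in the early AAV8-null livers. Top2a, the topoisomerase that untangles chromosomes, was at 1.23, 3.82 and 3.36 CPM at 8 dpc and 1.45, 1.53 and 0.583 CPM at 16 dpc, with 16.995, 20.9 and 1.82 CPM in the early AAV8-null livers. None of the 3 passed the test with the p21 vector (adjusted p = 0.914, 0.891 and 0.511).

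Of 30 genes of G1, S phase and DNA replication 1 was called (3.33%, against 2.74% of all tested genes). Rrm1, a subunit of ribonucleotide reductase, was at 11.4, 9.82 and 8.69 CPM at 8 dpc and 4.34, 5.45 and 4.81 CPM at 16 dpc. Rrm1 fell by 1.03 ± 0.24 on the log2 scale (adjusted p = 0.0324), in 1 leave-one-out fit. The list's median was -0.68, against -1.02 with AAV8-null, where 6 fell, and the median of the members' differences was 0.61. Ccnd1, cyclin D1, the partner of CDK4 that carries growth signals into G1, was at 225, 417 and 398 CPM at 8 dpc and 163, 278 and 137 CPM at 16 dpc. For Ccnd1 the log2 fold change of -0.85 ± 0.33 did not pass the test (adjusted p = 0.195). All 6 values exceeded those of the AAV8-null livers, 72.6, 116 and 95.7 CPM at 8 dpc and 21.1, 21.7 and 26.3 CPM at 16 dpc. Cdkn1c, the CDK inhibitor p57, was at 2.96, 1.66 and 2.38 CPM at 8 dpc and 0.767, 0.945 and 0.947 CPM at 16 dpc. Cdkn1c fell by 1.39 ± 0.33 on the log2 scale (adjusted p = 0.0349), in 1 leave-one-out fit, and the other 13 cyclin D, kinase and inhibitor genes did not pass the test. Of 23 p53 targets 2 rose, Btg2 and Plk2, both also known as immediate-early responders. Btg2, an inhibitor of proliferation, was at 9.08, 12.7 and 9.04 CPM at 8 dpc and 32.96, 44.4 and 76.9 CPM at 16 dpc. Btg2 rose by 2.32 ± 0.44 on the log2 scale (adjusted p = 0.00996), in 5 leave-one-out fits. Plk2, a polo-like kinase, was at 9.62, 6.68 and 8.13 CPM at 8 dpc and 22.5, 29.4 and 23.2 CPM at 16 dpc. Plk2 rose by 1.62 ± 0.32 on the log2 scale (adjusted p = 0.0119), in 4 leave-one-out fits. Mdm2, the ligase that degrades p53, was at 18.95, 17.7 and 18.5 CPM at 8 dpc and 17.8, 22.8 and 25.6 CPM at 16 dpc.

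All 28 tested interferon-stimulated genes had a negative log2 fold change, as had 6315 of the 12172 tested genes, and the median was -0.98. Of the 28, 4 fell and the other 24 did not pass the test. In 16 of the 28 every late liver was below every early one, as in 11.4% of all tested genes. Usp18, the protease that removes ISG15 and dampens interferon signalling, was measured at 12.2, 18.4 and 18.5 CPM at 8 dpc and 8.77, 6.54 and 6.12 CPM at 16 dpc. Usp18 fell by 1.19 ± 0.25 on the log2 scale (adjusted p = 0.0166), in 3 leave-one-out fits. Rsad2, the antiviral protein viperin, was at 12.6, 17.3 and 7.70 CPM at 8 dpc and 5.88, 6.18 and 4.59 CPM at 16 dpc. Rsad2 fell by 1.18 ± 0.27 on the log2 scale (adjusted p = 0.0266), in 1 leave-one-out fit. Gbp3, a guanylate-binding protein, was at 17.6, 18.7 and 16.1 CPM at 8 dpc and 5.96, 5.82 and 1.82 CPM at 16 dpc. Gbp3 fell by 1.95 ± 0.46 on the log2 scale (adjusted p = 0.031), in 1 leave-one-out fit. Ifi44 was at 4.24, 7.08 and 4.97 CPM at 8 dpc and 2.21, 1.82 and 0.801 CPM at 16 dpc. Ifi44 fell by 1.76 ± 0.45 on the log2 scale (adjusted p = 0.0456), in none of the leave-one-out fits. Library 4 was the lowest late liver in each of them. Isg15, a ubiquitin-like protein, was at 17.6, 21.6 and 24.2 CPM at 8 dpc and 11.7, 5.67 and 2.62 CPM at 16 dpc and did not pass the test (adjusted p = 0.177). The number that fell was 5 without replicate 3 of 8 dpc, 1 without replicate 1 of 8 dpc or library 1 of 16 dpc, and 0 without replicate 2 of 8 dpc, library 3 or library 4. The median ranged from -1.198 to -0.73 over these fits, and DESeq2 on all 15 libraries called 10 and limma voom 12, against 15 at an unadjusted p under 0.05 by edgeR. With AAV8-null 9 members fell and the median was -1.33. The 15 macrophage markers summed to 604 to 831 CPM at 8 dpc and 350.5 to 734 CPM at 16 dpc, and their part in these values was not tested. Of them edgeR called 0 (2 at an unadjusted p under 0.05, 1 by limma voom, 0 by DESeq2 with either set of libraries). In bulk liver RNA, fewer cells of a type and less RNA per cell cannot be told apart.

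The interferon-stimulated response element, here GAAA, any 2 bases and GAAA on either strand, was found in the RefSeq windows of 14 of the 23 interferon genes with a window, against 3.46% of all 27025 genes, 3.39% of the tested genes with a window and 6 of 96 called fallers. Of the 4 genes that fell Rsad2 and Gbp3 held it, shown here with the element in capitals as its complement (TTTC, any 2 bases, TTTC), on chr12:26456553-26456582 (minus strand) and chr3:142559989-142560024 (plus strand) of GRCm38.p6.
Rsad2: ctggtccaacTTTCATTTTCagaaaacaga
Gbp3: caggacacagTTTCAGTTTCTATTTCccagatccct
In Gbp3 a pair of overlapping elements form 1 run. Ifi44 had no such letters in its windows, and the table holds no window for Usp18.

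**Figure D4:**
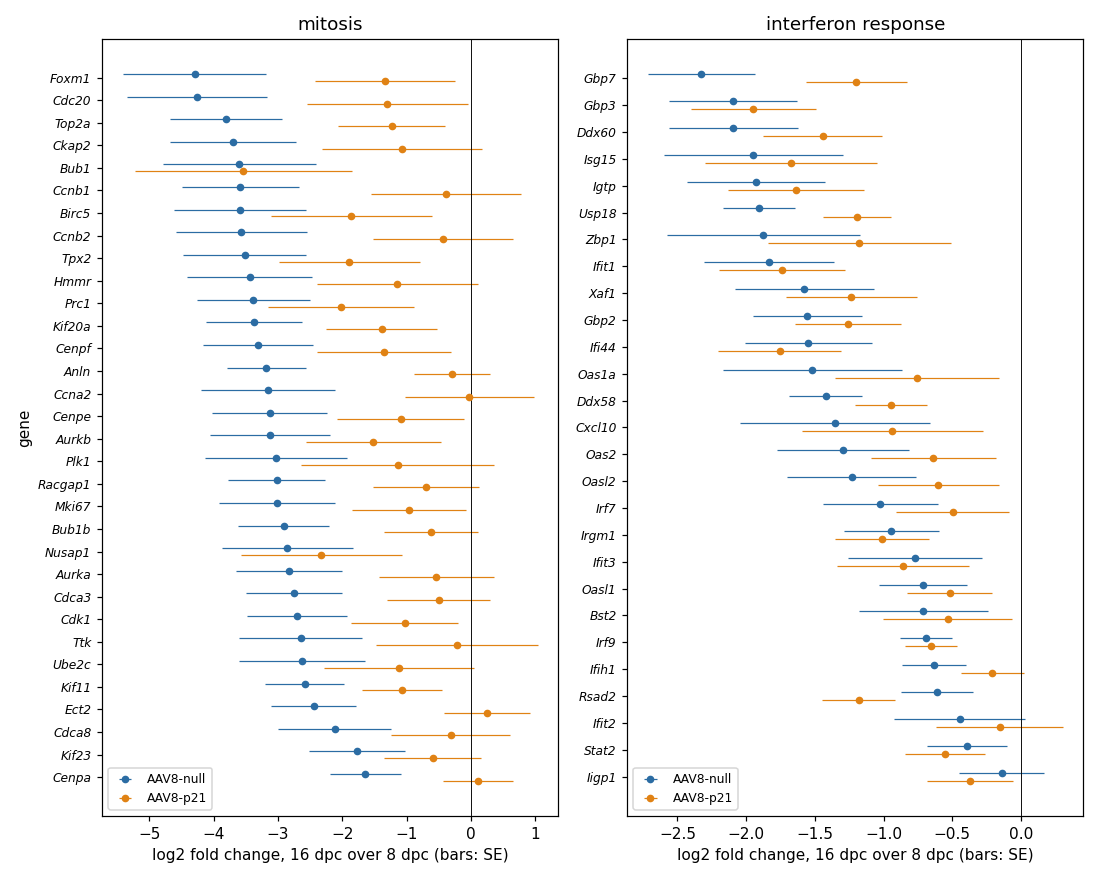
Log2 fold change from 8 to 16 dpc with its SE for the 32 tested members of the mitosis list (left) and 27 of the interferon list (right) with AAV8-p21 (orange) and AAV8-null (blue). The mitotic genes centre on -3.13 with AAV8-null and on -1.07, with wide errors, with AAV8-p21, whereas the interferon genes lie below 0 with both vectors.

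Clock-controlled genes separated the early livers from each other. Arntl, the activator BMAL1, was measured at 31.4, 21.4 and 2.45 CPM at 8 dpc and 0.511, 0.582 and 2.91 CPM at 16 dpc. Replicate 3 of 8 dpc lay with the late livers and replicates 1 and 2 did not. Dbp, a clock-driven factor of opposite phase, was at 0.642, 1.71 and 61.4 CPM at 8 dpc and 119.9, 81.05 and 51.8 CPM at 16 dpc, again with replicate 3 on the side of the late livers. Neither was called (adjusted p = 0.0722 and 0.465). Among 14 core clock genes edgeR called 0, with 7 at an unadjusted p under 0.05 (2 calls by DESeq2 on all 15 libraries, 5 on the compared groups, 7 by limma voom). Without replicate 3 of 8 dpc 2 core clock genes rose and 1 fell. Of 13 clock outputs 2 rose, with a median of 1.43 against 0.35 with AAV8-null and 0.60 as the median of the members' differences. Usp2, a ubiquitin protease, was at 1.68, 2.74 and 8.62 CPM at 8 dpc and 63.97, 59.4 and 22.8 CPM at 16 dpc. Usp2 rose by 3.51 ± 0.85 on the log2 scale (adjusted p = 0.0372), in 2 leave-one-out fits. Lpin1, the phosphatidate phosphatase lipin, was at 36.5, 29.6 and 84.3 CPM at 8 dpc and 161, 264 and 299 CPM at 16 dpc. Lpin1 rose by 2.27 ± 0.56 on the log2 scale (adjusted p = 0.0386), in 1 leave-one-out fit. Without replicate 3 of 8 dpc 4 outputs rose, without library 4 of 16 dpc 1, and without any of the other 4 libraries 0. The hour of sampling is not given in the sources used here, so stage and time of day cannot be told apart for these genes. Of 17 immediate-early genes Jun and Btg2 rose, with a median of 1.34 that ranged from 0.58 to 1.51 over the leave-one-out fits. The number that rose was 5 without replicate 3 of 8 dpc, 0 without replicate 1, and 1 without replicate 2 or library 3 of 16 dpc. DESeq2 on all 15 libraries called 4 of them, and limma voom and DESeq2 on the compared groups 9 each. Jun, a subunit of the factor AP-1, was at 10.7, 13.4 and 18.6 CPM at 8 dpc and 24.3, 77.2 and 41.7 CPM at 16 dpc. Jun rose by 1.75 ± 0.35 on the log2 scale (adjusted p = 0.0127), in 3 leave-one-out fits. Its partner Fos was at 2.22, 0.970 and 1.26 CPM at 8 dpc and 2.81, 8.07 and 3.57 CPM at 16 dpc (adjusted p = 0.0813).

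**Figure D5:**
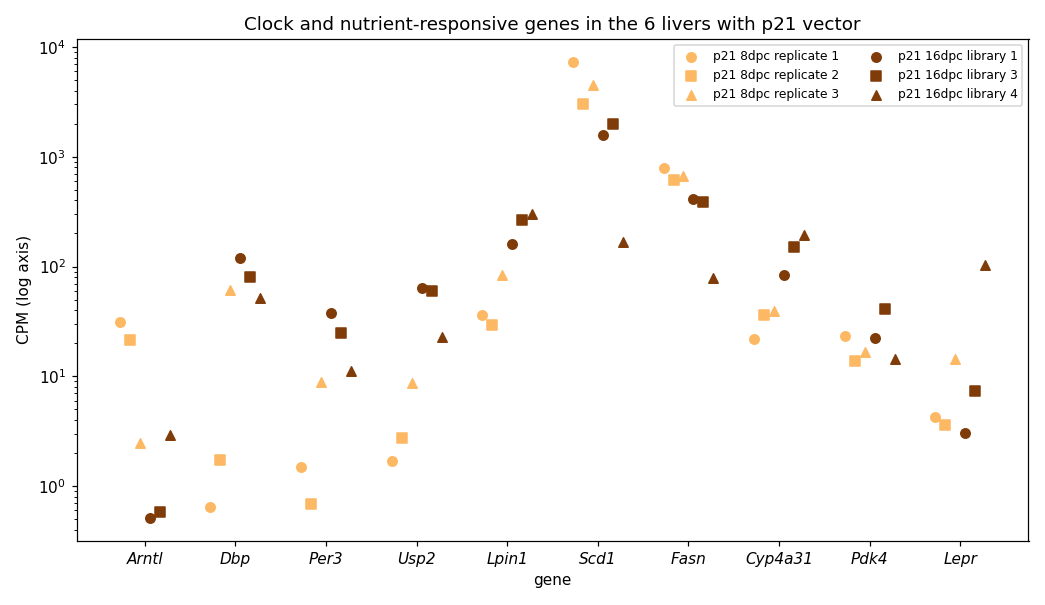
CPM on a log axis for 10 clock-controlled and nutrient-responsive genes (x axis) in each of the 6 livers with p21 vector, light markers for 8 dpc and dark markers for 16 dpc. Replicate 3 of 8 dpc lies with the late livers for Arntl and Dbp, and library 4 of 16 dpc stands apart for Scd1, Fasn and Lepr.

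Several large groups gave no calls by edgeR. Of 62 cytosolic ribosomal protein genes 0 were called (7 at an unadjusted p under 0.05, 0 by DESeq2 or limma voom). Their median was 0.18, and it moved between 0.03 and 0.43 over the leave-one-out fits. Of 60 nuclear oxidative phosphorylation genes 0 were called by any of these tests (0 at an unadjusted p under 0.05). Their median of -0.12 ranged from -0.22 to 0.08 over the leave-one-out fits. Of 30 hepatocyte transcription factors 0 were called (4 at an unadjusted p under 0.05, 0 by DESeq2 on all 15 libraries, 1 on the compared groups, 3 by limma voom), with a median of 0.04. Without replicate 3 of 8 dpc 3 of them rose. Hnf4a, the central factor among them, was at 439, 530.4 and 516 CPM at 8 dpc and 448, 668 and 749.9 CPM at 16 dpc. Among 32 genes of the secretory pathway and ER stress 0 were called (2 at an unadjusted p under 0.05, 1 by each of the other 3 tests, 1 without replicate 3 of 8 dpc). Hspa5, the chaperone BiP, spread widely at 701, 1512 and 513 CPM at 8 dpc and 883, 743 and 2859 CPM at 16 dpc.

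The 7 hepatocyte markers were present in every library, with sums of 114000 to 136000 CPM at 8 dpc and 284000 to 320000 CPM at 16 dpc. Most of these sums was Alb alone. Alb, Apoa1 and Serpina1b rose, the other 4 did not pass the test, and the median log2 fold change of the 7 was 0.38. Markers of cholangiocytes summed to 37 to 54 CPM at 8 dpc and 19.9 to 44 CPM at 16 dpc. Those of stellate cells and fibroblasts summed to 361 to 453 CPM and 447 to 463 CPM, those of T cells to 3.08 to 4.48 CPM and 2.11 to 4.60 CPM, and those of neutrophils to 2.28 to 3.70 CPM and 2.47 to 5.81 CPM. By edgeR the only marker lists with called members were those of hepatocytes and erythroid cells. Of the 71 tested markers of the other types 9 had an unadjusted p under 0.05. DESeq2 on all 15 libraries called 1 of the 71, DESeq2 on the compared groups 2 and limma voom 3. Of the erythroid markers Alas2, the haem synthesis enzyme of red cell precursors, was at 10.7, 16.3 and 9.81 CPM at 8 dpc and 51.6, 33.001 and 27.2 CPM at 16 dpc. Alas2 rose by 1.60 ± 0.32 on the log2 scale (adjusted p = 0.0133), in 4 leave-one-out fits, while the erythroid list's sum was 144 to 273 CPM at 8 dpc and 213 to 235 CPM at 16 dpc. Adipocyte markers summed to 0.888 to 14.3 CPM at 8 dpc and 4.34 to 169 CPM at 16 dpc, with Lep and Plin1 at 0 in all 6 livers. Adipoq and Cfd had at most 1 count in any of these livers, so the sums came from Plin4 and Cidec.

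Among the 89 genes called with AAV8-p21 and not with AAV8-null, 86 had the same sign in both contrasts. With AAV8-null 33 of them also passed a log2 fold change of 1 in size, and 58 had an unadjusted p under 0.05 by edgeR. For the difference 21 of the 89 had an unadjusted p under 0.05, against 3.09% of all tested genes. The way the 89 were chosen favours a small p of the difference. Those of the 89 that changed least with AAV8-null included Smarcd1, a subunit of the SWI/SNF chromatin remodelling complex. Smarcd1 was at 8.98, 8.33 and 8.41 CPM at 8 dpc and 3.07, 3.56 and 3.71 CPM at 16 dpc. Smarcd1 fell by 1.31 ± 0.20 on the log2 scale (adjusted p = 0.00216). With AAV8-null it was at 6.58, 6.01 and 5.83 CPM and 5.97, 5.42 and 4.27 CPM. Frat1, an activator of Wnt signalling, was at 5.18, 4.51 and 5.46 CPM at 8 dpc and 1.96, 1.74 and 2.33 CPM at 16 dpc. Frat1 fell by 1.32 ± 0.28 on the log2 scale (adjusted p = 0.0178), with a log2 fold change of -0.10 ± 0.26 with AAV8-null. Mpzl2, a cell adhesion protein, was at 32.1, 32.02 and 22.8 CPM at 8 dpc and 63.3, 66.8 and 63.3 CPM at 16 dpc. Mpzl2 rose by 1.15 ± 0.23 on the log2 scale (adjusted p = 0.0131), with a log2 fold change of 0.18 ± 0.23 with AAV8-null. The unadjusted p of the difference was 0.00162, 0.00615 and 0.00884 for these 3, and none was called after adjustment. They were chosen for a call with AAV8-p21 and little change with AAV8-null, which favours a small p of the difference. Smarcd1 was called in all 6 leave-one-out fits, Mpzl2 in all but the one without library 3 of 16 dpc, and Frat1 in 3. Sybu, Asap2, Ttc39c, Aifm2 and Sftpa1 also changed little with AAV8-null and were each called in 1 or 2 of the 6 fits.

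The smallest unadjusted p of the difference belonged to Rab3a, a GTPase of secretory vesicles, which was at 2.52, 1.77 and 1.54 CPM at 8 dpc and 2.90, 2.62 and 1.60 CPM at 16 dpc with the p21 vector. With AAV8-null it moved from 2.97, 5.42 and 2.86 CPM to 0.891, 0.916 and 0.534 CPM (difference 2.52 ± 0.54, unadjusted p = 0.000357). Slc16a6, a transporter of ketone bodies and taurine, was at 5.68, 13.8 and 7.63 CPM at 8 dpc and 47.2, 38.3 and 37.8 CPM at 16 dpc with the p21 vector. Slc16a6 rose by 2.19 ± 0.30 on the log2 scale (adjusted p = 0.000889). With AAV8-null it moved from 7.28, 6.61 and 5.77 CPM to 104, 102 and 82.8 CPM (difference -1.69 ± 0.41, unadjusted p = 0.000963). Ociad2, Gm4756 and Denn2b had differences of 1.41 ± 0.34, 1.56 ± 0.35 and -1.89 ± 0.49. None of these passed adjustment over all genes.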

How the data were processed

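Liver RNA of mice was sequenced as stranded mRNA libraries made from 200 ng of total RNA. Per the methods and the submitters' processing notes, the authors trimmed single-end reads with cutadapt 1.14, aligned them with HISAT2 2.1.0 to mm10 and counted unique alignments over protein-coding genes using HTSeq 0.12.4. The deposited values are raw counts of 21702 genes in 15 libraries. The strand setting and the treatment of overlapping genes are not given in the sources used here, so antisense and overlapping genes are uncertain, and unique mapping undercounts near-identical copies.

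The column numbers of the AAV8-p21 group at 16 dpc (libraries 1, 3 and 4) could not be tied to the sample numbers of the labels, so these libraries were used as unnumbered replicates. Genes were tested with edgeR 4.0.16 in R 4.3.3 (quasi-likelihood test, TMM, filterByExpr with minimum count 10, which kept 12172 genes, 1 model of 15 libraries and 5 groups, 10 residual degrees of freedom), with Benjamini-Hochberg adjustment over all tested genes. The methods name the DESeq2 Wald test, which was an alternative. The alternatives were DESeq2 size factors, other filters on counts, DESeq2 1.42.0, limma 3.58.1 (voom with sample weights), the adjusted p alone, genes over 1% of counts left out, the compared groups alone, and the removal of single libraries.

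The members, gene lists and tests were chosen with earlier results of these data known. The named genes are 8 fixed genes, the 15 largest rises and falls among called genes without overlap, the 10 most abundant called genes, the first 3 and up to 6 called members of each list, the genes with the smallest p for the difference, and those called with AAV8-p21 that changed least with AAV8-null. Not every named gene is described, and a few are not reported here. The procedure was tested on simulated counts with known changes. Floors are 3 counts per library and cover counting error only. Positions come from GENCODE M21 (GRCm38) and promoter sequences from RefSeq (GRCm38.p6), where 9763 of the tested genes were matched by symbol. Figures were drawn with matplotlib 3.10.9.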

Additional observations from a re-analysis of the deposited data

Results flagged for a closer look

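The rise of the Alb share of counts from 8 to 16 dpc was smaller in the livers with AAV8-p21 than in those with AAV8-null. It was 8.69 percentage points with AAV8-p21 and 16.9 with AAV8-null, a difference of -8.23 (exact permutation test with vector labels exchanged within stage, p = 0.005, the smallest possible). This exchange also responds to a vector difference at a single stage, and at 8 dpc the share was already higher with AAV8-p21. By edgeR the difference of the stage effects for Alb was -0.90 ± 0.34 on the log2 scale (unadjusted p = 0.0179). It was not called after adjustment over all genes.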

How the results depend on the processing

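The 334 calls with AAV8-p21 became 554 with DESeq2 on all 15 libraries, 869 with limma voom and 685 with DESeq2 on the compared groups alone, and between 250 and 404 under the other 6 settings tried. Leaving out each library in turn gave 154 (without replicate 1 of 8 dpc) to 393 (without replicate 3 of 8 dpc). With AAV8-null the 658 calls became 1029 with limma voom, 316 with edgeR on the compared groups alone and 248 to 1039 without one library. The difference of the stage effects gave 0 calls by edgeR in every leave-one-out fit and 14 with DESeq2 on the compared groups alone. The cause of these changes was not tested. Of the 244 genes named by the rule, which include genes that were never called, none reversed. Under at least 1 setting 69 of them fell short of a call that they had in the model of all libraries. Of all 334 calls with AAV8-p21, 91 were kept in every leave-one-out fit and in all 8 other settings.

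No paired analysis was possible because the numbers of the AAV8-p21 libraries at 16 dpc could not be tied to the labels. For AAV8-null, a fit of 12 libraries with the replicate block gave 559 calls and the same fit without it 608, and the deviations of same-numbered samples were correlated in some pairs and not in others (-0.529 to 0.451), so the numbers were not taken to pair the samples. The rise of the Alb share with AAV8-p21 was 8.15 to 8.99 percentage points without one library, and its difference from AAV8-null was -9.53 to -7.35 (exact permutation p = 0.005 to 0.01), an alternative chosen after seeing the data. Counts of 3 or fewer in a library limit the statements on genes near 0.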
